A study of Mus musculus with 11 samples.

Results

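Sox10, Foxd3, Fabp7, Erbb3 and Ednrb mark neural crest cells and the Schwann cell precursors that follow nerves into the limb. These 5 genes were taken by name from a table of 47517 gene names, in which each has 1 row. Read counts came from 11 RNA-seq libraries of mouse forelimb buds at E10.5 on a C57BL/6 background. The 5 control libraries had the genotype Gmnn +/f; Prx-Cre, with 1 floxed and 1 wild-type allele of Gmnn (Geminin, an inhibitor of replication licensing). The 6 mutant libraries had the genotype Gmnn f/f; Prx-Cre, with both alleles floxed. All embryos therefore carried the Cre transgene and at least 1 floxed allele, and no embryo without Cre was analysed here. Prx-Cre acts in limb bud mesenchyme, a lineage to which the Schwann precursors of limb nerves do not belong. The libraries came from 4 litters, called A to D. Litter A gave controls 1 and 2 and mutants 1 and 2, litter B gave control 3 and mutant 6, litter C gave control 4 and mutant 5, and litter D gave control 5 and mutants 3 and 4.

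Neural crest cells leave the dorsal neural tube and form, among others, the glia of peripheral nerves and the pigment cells of the skin. Foxd3 and Sox10 are transcription factors of this lineage. Foxd3 acts in early crest, and Sox10 is kept on in Schwann precursors and is needed for peripheral glia. Erbb3 is the receptor through which Schwann precursors receive neuregulin from axons, with Erbb2 as its signalling partner. Ednrb is a receptor for endothelins, on which crest cells of the gut and the pigment lineage depend. Fabp7 is a fatty acid binding protein of Schwann precursors and of radial glia. Crest cells are a small share of a limb bud, whose bulk is mesenchyme, and Erbb3 is also made by epithelia.

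Ednrb had the highest level of these genes and Foxd3 the lowest, and the windows around their transcription start are shown to set the 2 genes side by side. Each runs from 250 bases before to 50 bases after a RefSeq start (GRCm38.p6), 5′ to 3′ on the gene's strand, with CpG dinucleotides in capitals. The Ednrb window lies at chr14:103843652-103843951 on the minus strand and that of Foxd3 at chr4:99656049-99656348 on the plus strand. The whole Ednrb window lies inside the gene as the counts' annotation draws it, whose 5′ end at 103844173 is upstream of the RefSeq start used here.
Ednrb: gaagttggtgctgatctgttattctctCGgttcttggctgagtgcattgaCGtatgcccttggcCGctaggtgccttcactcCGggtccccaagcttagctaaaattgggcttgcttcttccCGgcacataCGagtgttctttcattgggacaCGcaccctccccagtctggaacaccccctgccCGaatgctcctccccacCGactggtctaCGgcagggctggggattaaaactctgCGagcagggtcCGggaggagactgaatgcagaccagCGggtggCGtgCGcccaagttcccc
Foxd3: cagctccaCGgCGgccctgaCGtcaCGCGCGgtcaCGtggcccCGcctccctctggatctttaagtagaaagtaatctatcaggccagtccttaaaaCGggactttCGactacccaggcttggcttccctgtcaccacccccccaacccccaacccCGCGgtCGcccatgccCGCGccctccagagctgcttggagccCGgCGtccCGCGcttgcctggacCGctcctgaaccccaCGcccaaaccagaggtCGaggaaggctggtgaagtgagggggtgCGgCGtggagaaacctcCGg
The Foxd3 window, of the gene with almost no reads, held 25 CpG and 65.7% G and C. The Ednrb window held 15 CpG and 58.7%, and the Fabp7 window (chr10:57784673-57784972, plus strand) held 6 CpG and 54.0%. The median over 32851 RefSeq windows of this length was 7 CpG and 52.7%. For Sox10 and Erbb3 no window is shown. Both strands of the 3 windows were searched for the SOX cores ACAAAG and ACAATG, the AP-2 site GCCNNNGGC and the TATA box TATAAA. The single match was an AP-2 site in the Ednrb window, which starts at position -195 from the RefSeq start and overlaps no other motif. Of all windows, 16.6% hold an AP-2 match, 28.6% hold either SOX core and 13.6% hold the TATA letters. A match to letters is a description and not a binding site.

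Total counts ran from 14721181 to 19733288 per library, so that 1 read was worth 0.0515 to 0.0701 CPM (counts scaled to a common library total, with TMM factors). Gmnn, examined as a check of the labels, had a control mean of 179.6 ± 40.2 CPM (SD, n = 5) and a mutant mean of 115.3 ± 16.1 CPM (SD, n = 6). Its log2 fold change was -0.67 (SE 0.10, edgeR adjusted p 0.0291). It was lower in each of the 25 alternative fits but lost the call in 8 of the 11 that left out 1 library. Control 5 stood apart from the other controls in a library measure that moved with genotype. This T-run index is the mean, weighted by counts, of the longest run of T in the transcripts of each gene. It was 10.3 to 10.8 in controls 1 to 4, 9.75 in control 5 and 9.20 to 10.2 in mutants. Genes tested with a T run of at least 18 bases had a median log2 fold change of -0.20, against 0.00 over all genes tested.

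All 5 genes were scarce. Per kb of exon, Ednrb had the highest mean level at 1.57 ± 0.616 CPM per kb (SD over 11 libraries). Erbb3 followed at 0.908 ± 0.273, Fabp7 at 0.474 ± 0.293, Sox10 at 0.353 ± 0.281 and Foxd3 at 0.0101 ± 0.0184 CPM per kb. Ednrb was above Erbb3 in 10 of the 11 libraries, Erbb3 above Fabp7 in 10 and Sox10 above Foxd3 in 10. Fabp7 was above Sox10 in only 7 of 11, so that their order was less regular, and no test compared the levels of these genes. In bulk tissue, fewer cells of a type and less RNA per cell cannot be told apart.

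**Figure D1:**
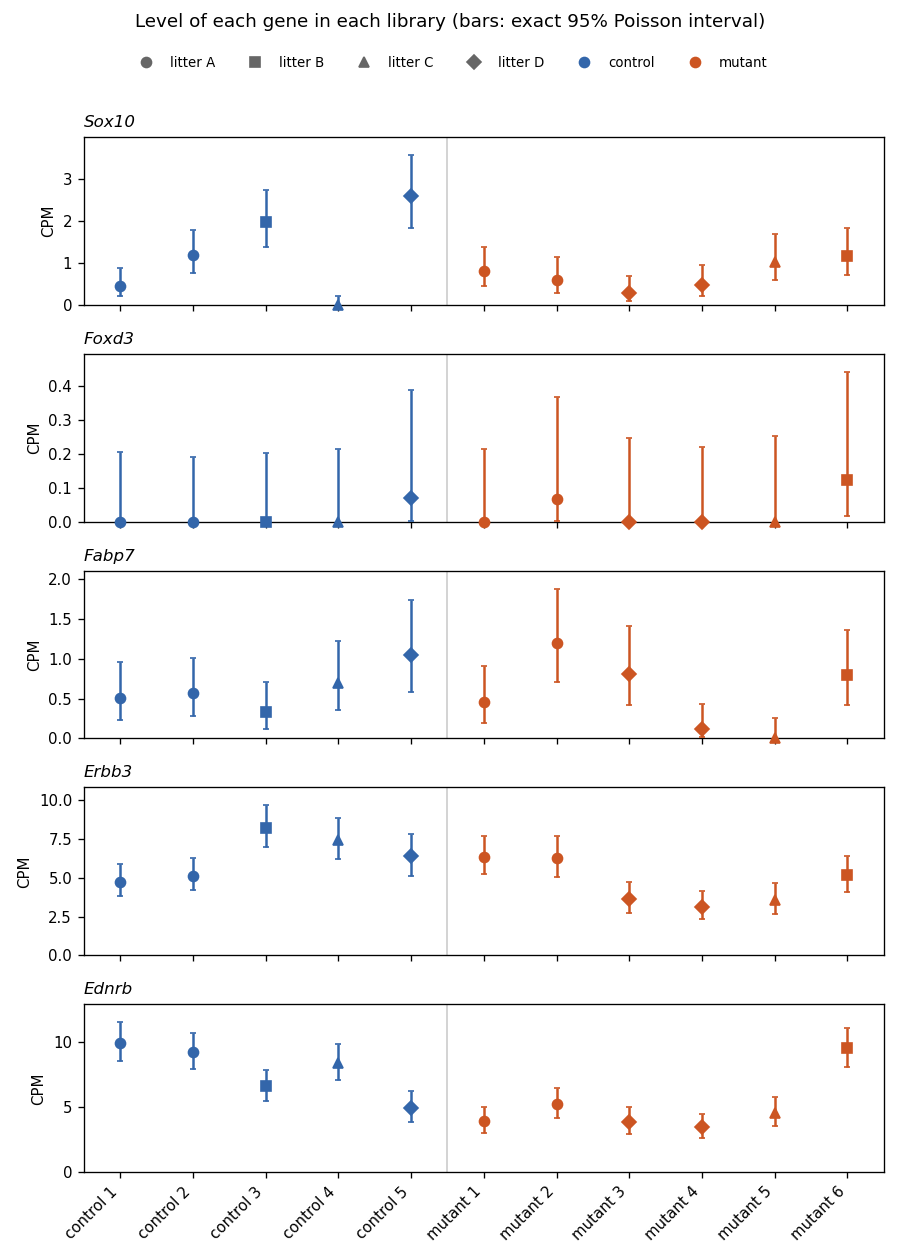
Level of Sox10, Foxd3, Fabp7, Erbb3 and Ednrb (CPM, linear axes from 0, a scale for each gene) in 5 control and 6 mutant libraries. Points are single libraries with the shape giving the litter, and bars are exact 95% Poisson intervals of the read count. Sox10 spreads from 0 to 2.59 CPM among controls, and the Ednrb values of 5 of the 6 mutants lie near that of control 5.

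None of the 5 genes passed the threshold for a difference between genotypes (quasi-likelihood F test of edgeR in a model blocked by litter, adjusted p under 0.05 over 15821 genes). Foxd3 had too few reads to enter the test. The other 4 genes had negative log2 fold changes of mutant over control, with a median of -0.49. Across all genes tested, 2.18% passed, and the median was 0.00. The number called in this series moves strongly with the processing, but no alternative that tested these genes called more than 1 of them.

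Foxd3 (chromosome 4, 99656299 to 99658622, plus strand, mm10), the early crest factor, had 4 reads in all. There was 1 read in control 5, 1 in mutant 2 and 2 in mutant 6, and 0 in the other 8 libraries. A count of 0 allows up to 3 reads, which is 0.154 to 0.205 CPM in those libraries. Foxd3 was thus not detectable at this depth in most libraries of either genotype, and no fold change is given. In annotation M21, 3.83% of the Foxd3 exon sequence is shared with a second gene on the same strand.

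Sox10 (chromosome 15, 79154913 to 79164490, minus strand) was the most uneven of the genes tested. Controls 1 to 5 held 0.447, 1.18, 1.96, 0 and 2.59 CPM of Sox10. Mutants 1 to 6 held 0.810, 0.595, 0.269, 0.476, 1.02 and 1.17 CPM. The mutants lay inside the range of the controls, between the empty library of control 4 and the 3 highest libraries, controls 5, 3 and 2. Control 5 had 37 reads, with an exact 95% Poisson interval of 26.1 to 51, and control 4 had 0, with an interval of 0 to 3.69. These intervals cover counting error only. The controls thus differed from each other by more than counting error. The control mean of 1.24 ± 1.06 CPM (SD, n = 5) compared with a mutant mean of 0.723 ± 0.340 CPM (SD, n = 6). The log2 fold change was -0.58 (SE 0.69, 95% interval -2.07 to 0.91, edgeR adjusted p 0.679). The sign turned without control 5, to a value of 0.29 (edgeR adjusted p 0.849). Without control 4 it was -1.16 (edgeR adjusted p 0.231).

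Fabp7 (chromosome 10, 57784881 to 57788450, plus strand), the fatty acid binding protein, had 0.503, 0.566, 0.327, 0.697 and 1.05 CPM in controls 1 to 5. In mutants 1 to 6 it had 0.463, 1.19, 0.806, 0.119, 0 and 0.798 CPM. The groups overlapped, and the extremes were both mutants: mutant 5 without a read and mutant 2 with 18 reads. Each genotype had 53 reads in all. The control mean of 0.629 ± 0.271 CPM (SD, n = 5) compared with a mutant mean of 0.563 ± 0.454 CPM (SD, n = 6), with a log2 fold change of -0.28 (SE 0.67, 95% interval -1.73 to 1.18, edgeR adjusted p 0.856). The interval covers a fold of 0.301 to 2.26, so that changes of either sign were within its error. The sign turned when mutant 5 or its litter mate control 4 was left out (0.17 in both cases) and when control 5 was left out (0.0886).

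Erbb3 (chromosome 10, 128567523 to 128589652, minus strand), the neuregulin receptor, had 1003 reads in all. In controls 1 to 5 it had 4.75, 5.15, 8.23, 7.44 and 6.38 CPM. For mutants 1 to 6 these levels were 6.36, 6.28, 3.63, 3.15, 3.55 and 5.15 CPM. Mutants 3, 4 and 5, from litters C and D, lay below every control, whereas mutants 1, 2 and 6, from litters A and B, lay within the control range. The control mean of 6.39 ± 1.48 CPM (SD, n = 5) compared with a mutant mean of 4.69 ± 1.44 CPM (SD, n = 6). The log2 fold change was -0.42 (SE 0.22, 95% interval -0.89 to 0.05, edgeR adjusted p 0.294). Litter A, where the mutants were the higher group, moved the value most: without it the log2 fold change was -0.88 (edgeR adjusted p 0.118). Without control 5 it was -0.25 (edgeR adjusted p 0.585).

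Ednrb (chromosome 14, 103814625 to 103844173, minus strand), the endothelin receptor, came nearest to a call. In controls 1 to 5 it had 9.96, 9.22, 6.60, 8.37 and 4.98 CPM. In mutants 1 to 6 it had 3.93, 5.23, 3.90, 3.45, 4.58 and 9.51 CPM. The groups overlapped through control 5, which lay among the mutants, and mutant 6, which lay among the controls. The other 5 mutants were all below controls 1 to 4. The control mean of 7.82 ± 2.02 CPM (SD, n = 5) compared with a mutant mean of 5.10 ± 2.25 CPM (SD, n = 6). The log2 fold change was -0.57 (SE 0.22, unadjusted p 0.0211, edgeR adjusted p 0.160), or 0.673 of the control level. Its 95% interval, not adjusted for the number of genes, was 0.486 to 0.932 of that level. In the same fit, 3380 of the 15821 genes tested (21.4%) had an unadjusted p under 0.05 (edgeR).

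Leaving out a litter made the Ednrb difference smaller or larger, and it stayed negative. Without litter A it was -0.25 (edgeR adjusted p 0.679), and without litter B it was -0.84 (edgeR adjusted p 0.155). Over 25 alternatives it was negative in all. Its unadjusted p was under 0.05 in 18, as it was for 21.4% of all genes tested in the main fit (edgeR). It passed the adjusted threshold in 1 alternative, the fit without a filter on low counts (edgeR adjusted p 0.0273). These fits overlap and are not separate checks. Without control 3, mutant 6 or litter B, for example, the value was -0.84 each time. Ednrb transcripts hold a T run of 18 bases, while the longest run is 4 in Sox10, 7 in Foxd3, 8 in Fabp7 and 10 in Erbb3. With the T-run index added to the model, the Ednrb value was -0.62 (edgeR adjusted p 0.576). In that fit the values were -0.88 for Erbb3, -1.34 for Sox10 and -1.80 for Fabp7, and none of the 4 passed.

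The comparison within litters showed how far the genes went different ways. Ednrb differed by -1.06 log2 units (mutant minus control) in litter A, 0.52 in B, -0.85 in C and -0.43 in D. Erbb3 differed by 0.35 in litter A, -0.66 in B, -1.04 in C and -0.89 in D. For Ednrb the exception was thus litter B, and for Erbb3 it was litter A. Sox10 differed by -0.08 in litter A, -0.70 in B, 3.25 in C and -2.49 in D. The large value in litter C rests on the 0 reads of control 4 and on the prior count of 2 used for log2 levels. Fabp7 differed by 0.42 in litter A, 1.04 in B, -2.76 in C and -1.31 in D, so that in litter C it went down where Sox10 went up.

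**Figure D2:**
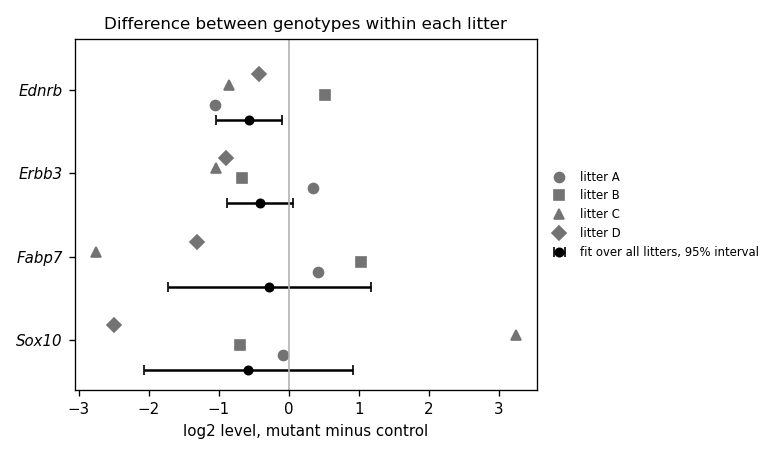
Difference in log2 level between mutant and control for the 4 genes tested. Grey symbols are the litters and black points are the fit over all litters with its 95% interval. No gene has all 4 litters on 1 side of 0. The Ednrb interval of -1.04 to -0.10 (not adjusted for the number of genes) is the only one that leaves out 0. In that fit, 21.4% of all genes tested had an unadjusted p under 0.05 (edgeR).

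The genotype by litter difference was tested on its 3 coefficients together, with 3 residual degrees of freedom. No gene of the 4 passed, and neither did any of the 16779 genes in that fit (0% called, smallest edgeR adjusted p 0.892). The unadjusted p was under 0.05 for 649 genes (3.87%), among them Sox10 (p 0.00401), Erbb3 (p 0.0143) and Ednrb (p 0.0195) but not Fabp7 (p 0.085), all by edgeR with an adjusted p of 0.962. The opposite directions between litters were therefore not shown to differ after adjustment. DESeq2 called 16 genes for this difference, none of them among these 4. Without a filter on low counts, edgeR called 438 genes, among them Sox10 (adjusted p 0.000417). In litter C the Sox10 difference rests on a single control, control 4, with 0 reads. Litters as such differed in 14 genes with genotype held (0.0885% called), and none was of this set. Ednrb had the smallest litter p of the 4, at 0.0620 (edgeR adjusted p 0.389).

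The 4 genes rose and fell together only in part over the libraries. Pearson r of log2 CPM over the 11 libraries, given as a description, was highest for Erbb3 with Fabp7 (0.52, Spearman rho 0.32) and for Erbb3 with Ednrb (0.39, rho 0.33). Fabp7 with Ednrb had an r of 0.31 (rho 0.20). Sox10 had an r of 0.12 with Erbb3, -0.05 with Ednrb and -0.08 with Fabp7. The few reads of Sox10 and Fabp7 limit what their r can show. All values share the library, its depth and the bud it came from. In control 4, which had no Sox10 read, Erbb3 (7.44 CPM) and Ednrb (8.37 CPM) were above their control means.

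Genes with the most similar pattern were ranked by Pearson r over the 11 libraries, among 11959 genes with a mean of at least 1 CPM. These r are the top of a long ranking and carry no test. Erbb3 lay nearest to Fgfbp1 (r 0.948), an FGF binding protein secreted by epithelia, followed by Abhd14b (0.890), Tfap2b (0.879), Cdh1 (0.865) and Rps6kb1 (0.858). Cdh1 is the adhesion molecule of epithelia, and Tfap2b is an AP-2 transcription factor of crest and ectoderm. Cdh1 had 11.6, 12.4, 26.7, 27.6 and 16.8 CPM in controls 1 to 5 and 18.9, 21.2, 12.0, 12.0, 13.5 and 15.6 CPM in mutants 1 to 6. Both genes were highest in controls 3 and 4. Cdh1 was about as low in controls 1 and 2 as in mutants 3 to 5, whereas Erbb3 was higher in those controls than in those mutants. The part of surface ectoderm in the Erbb3 level was not tested.

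Ednrb lay nearest to Zfp39 (r 0.915), Eme2 (0.882), Zfp367 (0.876), Mapk8ip2 (0.876) and Zfp963 (0.875). Of these Zfp367, a zinc finger gene, was itself called lower in mutants (log2 fold change -1.17, edgeR adjusted p 0.00550). Zfp39 has a T run of 18 bases, as Ednrb has, and the other 4 have runs of 5 to 14. No crest or Schwann gene of the lists was among the 5 nearest genes of Ednrb, Sox10 or Fabp7. The gene nearest to the mean of the 4 standardised patterns was Krt15 (r 0.923), a keratin. After it came Paqr4 (0.893), Galns (0.876), Pgam2 (0.860), Sox12 (0.859), Eme2 (0.85), Ehbp1 (0.849), Tmem38a (0.847), Ogfrl1 (0.846) and Aftph (0.842).

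**Figure D3:**
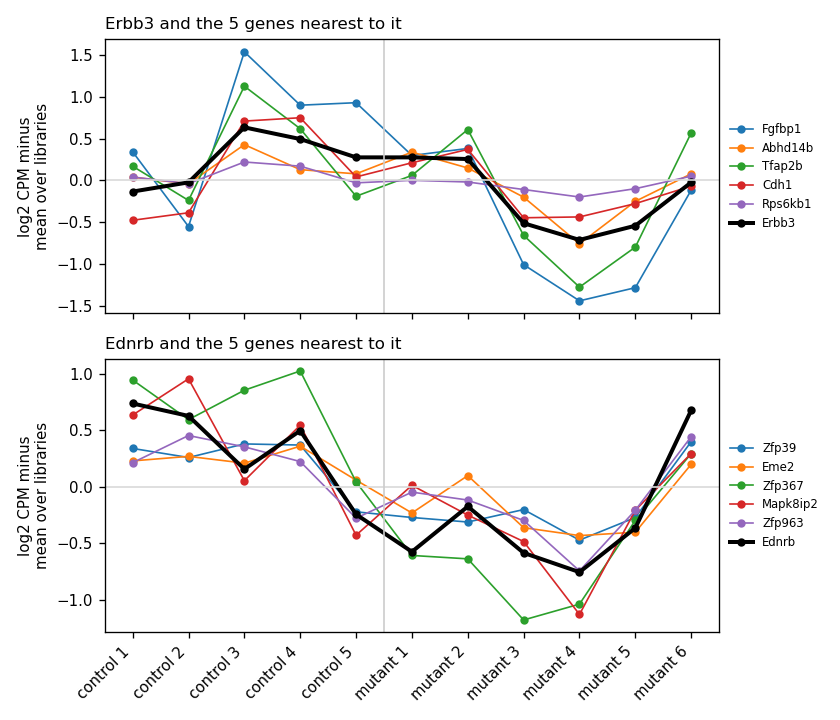
Log2 CPM of Erbb3 (upper panel) and Ednrb (lower panel), each with the 5 genes nearest to it by Pearson r, less the mean over the 11 libraries. Lines join libraries only to guide the eye. Erbb3 and its neighbours are low in mutants 3 to 5, and Ednrb is below its mean in control 5 and mutants 1 to 5 and above it in mutant 6, as are Zfp39 and Zfp963.

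Other genes of the lineage were taken from lists of known markers. Of 12 crest transcription factors, 11 were tested and 0 passed, with a median log2 fold change of -0.17. Of the 11, 8 had a negative and 3 a positive value, against 7799 negative and 8022 positive over all genes tested. The 3 with the highest level per kb were Snai1 (log2 fold change 0.20), Mycn (0.18) and Snai2 (0.00), of which Snai1 and Snai2 drive the loss of adhesion in migrating cells. Of 20 Schwann precursor and glial genes, 13 were tested and 0 passed, with a median of 0.07. The 3 highest per kb were Gap43 (0.22), a growth protein of axons, Serpine2 (0.15) and Pmp22 (-0.69), a myelin protein. Several of these genes are also made by mesenchyme, muscle or nerve, and their levels do not stand for crest cells alone.

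Cdh19 and Ngfr were picked after their values were seen, because they are classical markers of the glial branch. Cdh19, a cadherin of Schwann precursors, had 9 reads in all, too few for the test. Its reads came from controls 1 and 5 and mutant 6 alone, at 0.168, 0.0701 and 0.307 CPM. Ngfr, the p75 neurotrophin receptor of migrating crest, had 18.9, 16.2, 9.43, 14.1 and 34.4 CPM in controls 1 to 5. In mutants 1 to 6 it had 14.5, 9.33, 14.7, 19.6, 18.5 and 6.63 CPM. The groups overlapped, with control 5 the highest library and mutant 6 the lowest, whereas Ednrb was low in control 5 and high in mutant 6. The Ngfr log2 fold change was -0.50 (edgeR adjusted p 0.155).

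The ligands and partners of the 2 receptors were measured as well. In the neuregulin and ErbB list, 6 of 9 genes were tested and 0 passed (median 0.13), and Nrg3 had no read. Erbb2, the partner of Erbb3, was even, with a control mean of 16.8 ± 1.93 CPM (SD, n = 5) and a mutant mean of 16.2 ± 1.69 CPM (SD, n = 6). Its log2 fold change of -0.05 had an edgeR adjusted p of 0.855. The feedback inhibitors Errfi1 (0.21) and Lrig1 (-0.28) did not pass either. Nrg1, the axonal ligand, had a control mean of 0.580 ± 0.139 CPM (SD, n = 5) and a mutant mean of 0.630 ± 0.295 CPM (SD, n = 6). It had 112 reads in all, and the cells of the bud sample that they came from are not known.

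In the endothelin list, 6 of 7 genes were tested and 0 passed (median -0.02), and Edn2 had no read. The 3 highest per kb were the converting enzymes Ece1 (-0.34) and Ece2 (0.28) and the second receptor, Ednra (-0.44, edgeR adjusted p 0.199). Ednra had a control mean of 60.8 ± 18.4 CPM (SD, n = 5) and a mutant mean of 42.4 ± 9.03 CPM (SD, n = 6). Its transcript was thus more abundant than that of Ednrb, with 9.28 against 1.57 CPM per kb over all libraries. Edn3, a ligand of Ednrb, had a control mean of 13.2 ± 3.08 CPM (SD, n = 5) and a mutant mean of 12.7 ± 1.61 CPM (SD, n = 6). Of 8 melanoblast genes, the pigment branch of the crest, 5 were tested and 0 passed (median -0.11), and Tyrp1 had no read. Kit, a receptor of pigment precursors and other cells, had the lowest p of that list (log2 fold change -0.69, edgeR adjusted p 0.0849). Kit transcripts hold a T run of 21 bases.

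Markers of other tissues that a bud sample could hold were summed in each library, and their part in the values above was not tested. Of 10 neural tube genes only Irx3 was tested, at a mean of 7.44 CPM, and it carried nearly all of the sum. Olig2 and Nkx6-2 had no read, and Sox1 had 1. The sums were 5.05 to 10.2 CPM in controls and 7.46 to 10.9 CPM in mutants. Neuron and axon genes summed to 90.0 to 131 CPM in controls and 84.5 to 103 CPM in mutants, with 0 of the 11 tested passing (median -0.22).

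Surface ectoderm genes, the tissue that may share Erbb3, summed to 185 to 335 CPM in controls and 203 to 338 CPM in mutants, and 0 of 10 passed (median -0.19). Mutants 3, 4 and 5, where Erbb3 was lowest, had 216, 247 and 203 CPM. Mutant 6 (229 CPM) lay within that span and control 1 (185 CPM) below it. Within litters, Cdh1 had the signs of Erbb3. Cdh1 was named above for its likeness to Erbb3 over these same libraries, so its signs are no separate finding. Cdh1 differed by 0.73 log2 units (mutant minus control) in litter A, -0.77 in B, -1.03 in C and -0.485 in D. Most genes of the ectoderm list had the same signs, but not all did. The share of all genes with these signs was not counted. What lies behind these shared signs was not tested. Endothelial genes summed to 219 to 339 CPM in controls and 214 to 332 CPM in mutants (0 of 10 passed, median 0.09), somite and trunk genes to 56.7 to 81.3 and 49.0 to 60.0 CPM (0 of 6, median -0.26). Limb muscle precursor genes summed to 40.7 to 83.3 CPM in controls and 31.4 to 81.0 CPM in mutants (0 of 8, median 0.15), macrophage genes to 5.12 to 40.5 and 13.8 to 57.7 CPM (0 of 9, median 0.73), and red cell genes to 123 to 237 and 111 to 297 CPM (0 of 6, median 0.23). The limb mesenchyme genes, which include the tissue's defining markers Prrx1 and Tbx5, summed to 581 to 737 CPM in controls and 623 to 716 CPM in mutants (0 of 10, median 0.06).

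The list with calls was contractile muscle, where 3 of 10 genes were lower in mutants: the actins Acta1 (log2 fold change -3.78, edgeR adjusted p 0.0353) and Actc1 (-2.59, edgeR adjusted p 0.0464) and the myosin light chain Myl1 (-2.66, edgeR adjusted p 0.0452). The sums were 24.2 to 113 CPM in controls, with controls 1, 2 and 5 at 63.0, 113 and 111 CPM, and 24.3 to 32.4 CPM in mutants. None of the 3 passed without control 5 (edgeR adjusted p 0.0611, 0.106 and 0.104 in that order), and in the 11 fits that left out 1 library Acta1 lost the call in 9 and Actc1 and Myl1 in all 11. The part of muscle in the values above was not tested.

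**Figure D4:**
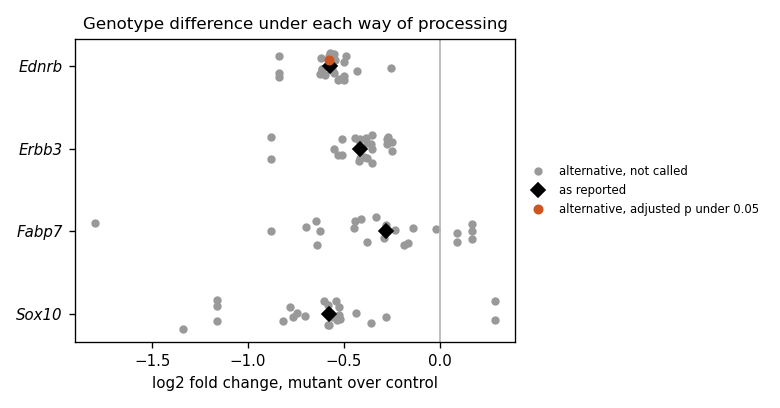
Log2 fold change (mutant over control) of the 4 genes tested, as reported (black diamonds) and under 24 or 25 alternatives (points, spread vertically for visibility). Ednrb and Erbb3 stay below 0 in every alternative, Sox10 and Fabp7 cross 0, and 1 Ednrb point has an adjusted p under 0.05.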

How the data were processed

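Per the file headers, the deposited table holds unnormalized counts of reads for each gene name. The authors counted with featureCounts 1.4.6-p4 on mm10 and GENCODE M9, at a mapping quality of at least 10 and with no option for strand. The header names 12 alignment files, and the table's 11 libraries were analysed here. The submitters' processing notes list STAR 2.5.4b. Replicates were not pooled. Counts were analysed here with edgeR 4.0.16 (R 4.3.3): filterByExpr left 15821 genes with 99.9% of the counts, TMM scaling followed, and the two-sided quasi-likelihood F test used a model of litter and genotype. Its p-values were adjusted by Benjamini-Hochberg across the genes tested, with a threshold of 0.05. CPM are relative to TMM-scaled totals, and log2 levels used a prior count of 2. The 5 genes were all given by name, and they and the lists were chosen with earlier results of these data known. The fit was run on simulated counts with known changes as a check of its steps. Those counts had no litter effect and the same dispersion for each gene, so they do not show its error rates in these data. Genes other than the 5 were named when called (up to 6 per list), otherwise as the 3 highest per kb in 4 lists. Nrg1, Edn3, Kit, Cdh19 and Ngfr were named outside this rule, after their values were seen. Nearest genes left out predicted, clone-named and Y-linked genes and Xist.

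The pairing comes from the litters in the titles. As a check, the deviations of a control and a mutant library from their group means had r across genes of -0.16 to 0.37 (median 0.13) in the 8 pairs that shared a litter. In the 22 pairs that did not, r was -0.33 to 0.17 (median -0.02). No libraries of a group agreed within sampling noise (among 25 pairs the lowest chi-square was 6.82 times its degrees of freedom). The labels describe embryos but do not say how many buds each library held. Alternatives were RLE and upper-quartile scaling, 2 other filters, DESeq2 1.42.0, limma-voom (limma 3.58.1), no block, the T-run index, dropping 71 haemoglobin, mitochondrial and ribosomal RNA genes, each library or litter left out and, added after seeing the data, edgeR without its legacy option. T runs come from GENCODE M21 transcripts, and 530 genes tested had no value.

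A few genes of the lists are not reported here by name, although counts and sums over the lists include them.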

Additional observations from a re-analysis of the deposited data

How the results depend on the processing

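No alternative turned the direction of Ednrb or Erbb3. Fits that left out 1 library gave -0.84 to -0.43 for Ednrb, -0.55 to -0.25 for Erbb3, -1.16 to 0.29 for Sox10 and -0.70 to 0.17 for Fabp7, as log2 fold changes. Without litter D, Sox10 was at 0.29 and Fabp7 at 0.0897, and without litter C Fabp7 was at 0.17. Without a filter on low counts Ednrb had -0.58 and passed, so that 1 of the 5 genes was called, and 1 (Sox10) was called for the genotype by litter difference. In that fit Foxd3 had an edgeR adjusted p of 0.907. The fit without the litter block (no pairing) gave -0.62, -0.44, -0.75 and -0.14 for Ednrb, Erbb3, Sox10 and Fabp7 and changed no call among them. The filter of 1 CPM left Fabp7 out, and DESeq2 gave Sox10 and Fabp7 no adjusted p for genotype. Over all genes, 345 calls for genotype became 1570 without the filter, 1190 with DESeq2, 550 with the 1 CPM filter, 16 without the block, 3 with the T-run index, 1 (without control 4 or mutant 5) to 850 (without control 5) with 1 library left out, and 9, 3, 1 and 148 without litters A to D. The 14 litter calls became 1580, 569, 2 (upper quartile), 38 (no legacy option), 41 (T-run index) and 0 to 87 with 1 library left out, and the 0 interaction calls became 438 without the filter and 16 with DESeq2. The causes were not tested. Foxd3, Fabp7 and Sox10 had 0 to 37 reads in each library, which limits the precision of their levels.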
